A study of Mus musculus with 12 samples.

Results

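The ATF4 programme described here is a set of 40 mouse genes: the transcription factor ATF4, factors and effectors that act around it, and the amino acid enzymes, amino acid transporters and cytosolic tRNA synthetases known to be its targets. Its members were taken by name, and each gene was represented by the probe set with the highest mean over all 12 arrays. Of the 40 genes, 39 were measured through a probe set annotated to a single gene, as were 18193 genes in all. Pycr1 was not analysed here, and Mars is listed under its synonym Mars1.

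RNA was measured on 12 Affymetrix Mouse430_2 arrays, 3 for each of 4 cell types from mice of the strain C57BL/10.RIII. The series concerns FoxA1+ regulatory T cells in experimental autoimmune encephalomyelitis, a disease induced in mice to model multiple sclerosis. The nFoxA1Treg group is titled neuron induced, has the cell type natural FoxA1Treg and was sorted as CD4hi and PD-L1hi, where PD-L1 is an inhibitory ligand. The Treg group, regulatory T cells, was marked CD4+ and TGFbeta+. The iFoxA1Treg group is titled as induced with IFN-beta and was also CD4hi and PD-L1hi. The EncT group, encephalitogenic T cells, was marked CD4+ and serves here as the comparison group. Age, sex, number of animals and any pooling are not given in the labels, so the replicates may be technical and each p-value reflects array-to-array spread alone.

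Values are quantile-normalized log2 probe set signals, and a gene is called where limma's two-sided p, adjusted by Benjamini-Hochberg over the 12609 genes past a filter on dim probe sets, is under 0.05. All 39 measured members passed that filter over 12 arrays, and 37 passed it over the 9 arrays outside iFoxA1Treg. The 2 that passed only with the iFoxA1Treg arrays included are Slc7a11 and Slc1a4, whose EncT means of 3.46 and 3.23 log2 lie under the filter level of 4.05 log2, so that their differences from EncT are not well measured. A difference of 1 on this scale is a 2-fold difference, and levels of different probe sets were not compared with each other. Because 3 arrays stand for each group, the number of arrays limits the precision of every value.

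The 3 arrays labelled iFoxA1Treg stood apart and went against their label. Over all probe sets they correlated with the other 9 arrays at r of 0.694 to 0.735, whereas the other 9 correlated among themselves at 0.822 to 0.848. The mean of Cd4 (± SD over 3 arrays) was 4.24 ± 0.10 log2 on these arrays, against 10.44 ± 0.07 for nFoxA1Treg, 10.39 ± 0.06 for Treg and 10.57 ± 0.02 log2 for EncT. The macrophage gene Lyz2 averaged 12.36 log2 on them and the B cell gene Cd79b 12.17 log2, against 5.18 and 3.79 log2 in EncT. Xist, the RNA that silences an X chromosome in female cells, averaged 2.11 log2 on these arrays and 11.07 log2 in EncT, so sex and group cannot be told apart there. The comparisons among nFoxA1Treg, Treg and EncT therefore come first, and values of the arrays labelled iFoxA1Treg follow separately.

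ATF4 is the effector of the integrated stress response. Kinases that sense amino acid shortage, unfolded protein in the endoplasmic reticulum, heme shortage or viral RNA phosphorylate the initiation factor eIF2, which lowers general translation but raises translation of Atf4 mRNA. ATF4 then binds composite C/EBP-ATF sites together with partners such as C/EBP beta and gamma, and switches on genes that make, import and charge amino acids. In T cells the same set is known to be induced on activation, when mTORC1 also raises ATF4.

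Most of the programme was higher in both kinds of regulatory T cell than in encephalitogenic T cells. In nFoxA1Treg against EncT, 30 of 39 members were called higher and 2 lower, while 19.6% of all 12609 genes were called, 8.46% higher and 11.2% lower. The members' median difference was 0.55 log2, against -0.0045 log2 over all genes, and 5 members were at least 2-fold higher. Both the 30 and the 5 include Slc1a4, whose EncT mean lies under the filter level and whose difference is not well measured. In Treg against EncT, 24 members were called higher and 2 lower, with 16.5% of all genes called, 6.23% higher and 10.3% lower. Their median there was 0.47 log2, against -0.0038 log2 over all genes, and 2 members were at least 2-fold higher. The split of all called genes in Treg against EncT depended on the scaling. It was 785 higher and 1299 lower here, 535 and 1417 with values as deposited, and 429 and 1293 with arrays centred on their medians, and 22 members were called higher under either of these other scalings. These comparisons use the same EncT arrays: 24 members were called higher in both, 2 were called lower in both, 6 were called in nFoxA1Treg alone and 7 in neither. A moderated F test among the 3 groups called 30 of the 39 members and 16.8% of all genes.

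**Figure D1:**
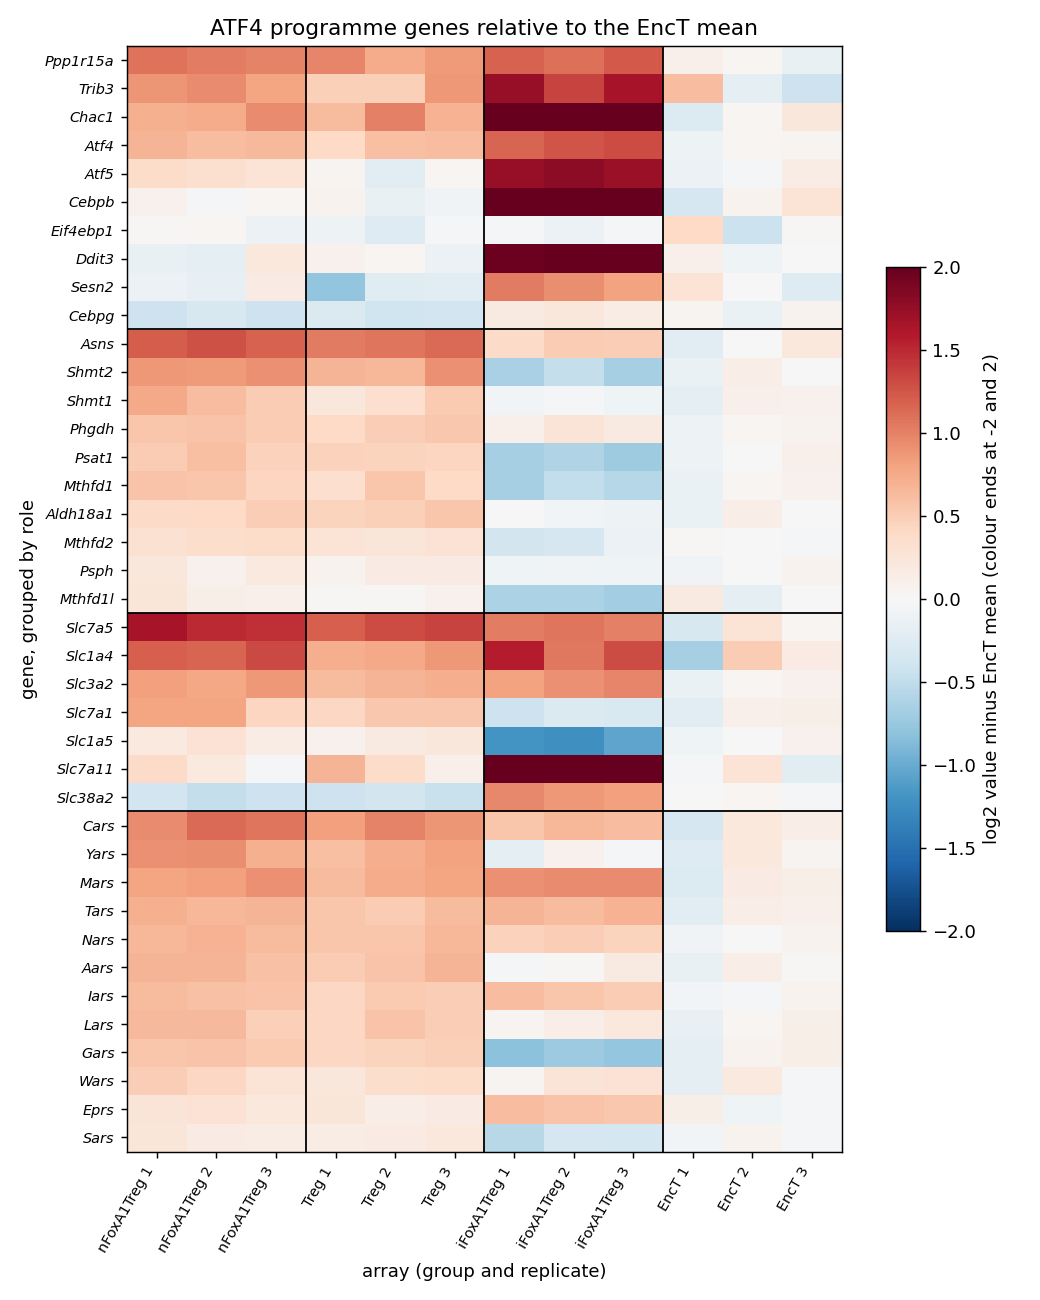
Each cell is the normalized log2 value of a member on an array minus the EncT mean of that member, with members in rows grouped by role and the 12 arrays in columns. Enzymes and synthetases are mostly red across the nFoxA1Treg and Treg arrays, while on the iFoxA1Treg arrays factors such as Cebpb and Ddit3 are dark red. On those arrays 5 of the 10 enzymes were called lower than in EncT, as were 38.3% of all genes.

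Markers of other cells and the position of single arrays moved with this difference. In nFoxA1Treg against EncT, 4 of 9 macrophage markers, 3 of 6 B cell markers and 5 of 7 dendritic cell and MHC class II markers were called lower, and 1 of 8 T cell markers. In Treg against EncT the counts called lower were 3 of 9, 1 of 6, 2 of 7 and 1 of 8. Summed over the list on the linear scale, macrophage markers reached 198 to 262 in nFoxA1Treg, 241 to 278 in Treg and 326 to 379 in EncT. B cell markers reached 124 to 178, 177 to 210 and 284 to 369 in the same groups, and dendritic cell and MHC class II markers 121 to 308, 321 to 426 and 589 to 734. T cell markers reached 16400 to 17200, 17100 to 17300 and 17400 to 18300 in the same groups. Sums of different lists rest on different probe sets and were not compared with each other. Ttr, a choroid plexus gene, averaged 8.12 log2 in Treg and 2.51 log2 in EncT. Foxj1, the other gene listed for choroid plexus and ependyma, differed by -0.034 log2 in Treg against EncT and was not called. EncT replicate 1 was the lowest EncT array for 28 of 39 members, against 46.8% of all genes. Without it, 27 members were called higher in nFoxA1Treg and 24 in Treg, and the part of the marker genes in these results was not tested. In bulk RNA, fewer cells of a type and less RNA per cell cannot be told apart.

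**Figure D2:**
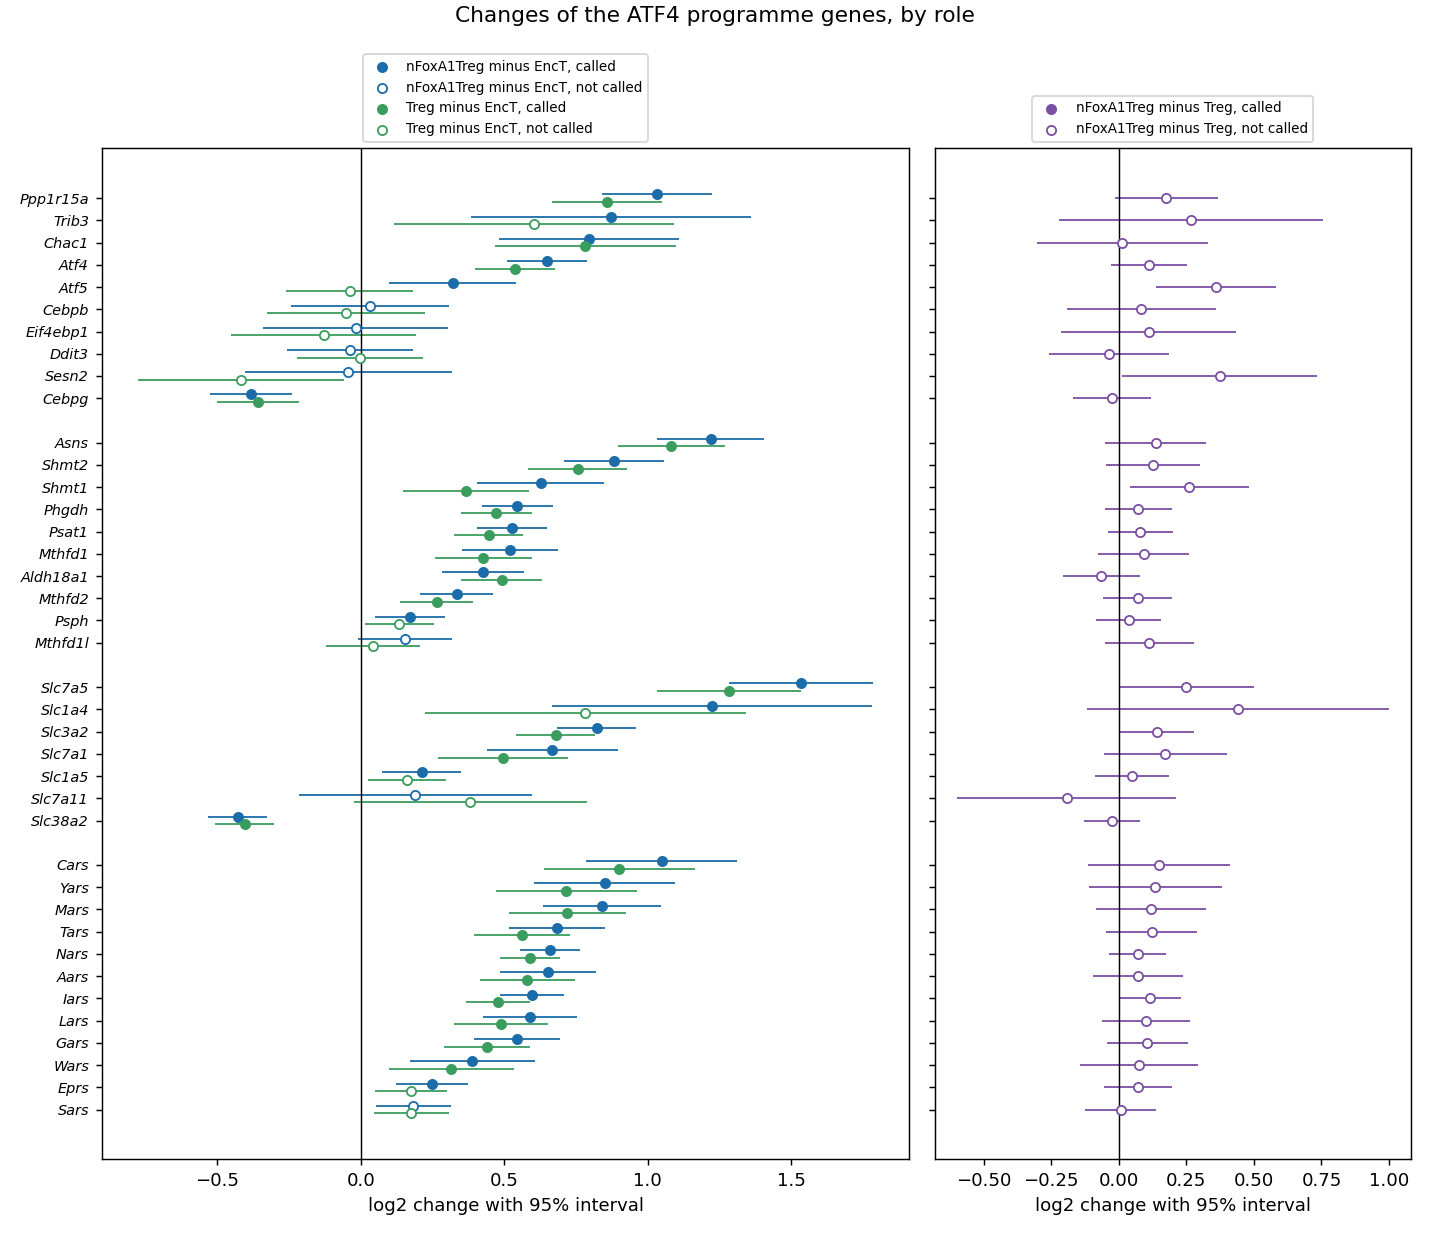
Points are log2 differences of each member with 95% intervals, filled where called, for nFoxA1Treg and Treg against EncT on the left and nFoxA1Treg against Treg on the right. On the left most intervals lie right of 0, with Cebpg and Slc38a2 left of it, and on the right no member is called.

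Among the factors and stress effectors, Atf4, Ppp1r15a and Chac1 were called higher in both regulatory groups. The C/EBP genes Cebpb and Cebpg and Ddit3 were called higher in neither. In nFoxA1Treg 5 of these 10 genes were called higher and 1 lower, and in Treg 3 were called higher and 1 lower. Over all genes the shares were 8.46% higher and 11.2% lower in nFoxA1Treg, and 6.23% and 10.3% in Treg. The 1 lower is 10% of the class, near those shares. Atf4 (probe set 1448135_at) stood at 9.78, 9.73 and 9.76 log2 in nFoxA1Treg and at 9.51, 9.70 and 9.72 log2 in Treg, against 9.0, 9.15 and 9.17 log2 in EncT. The lowest array of either regulatory group was above the highest EncT array. Such a separation upward occurred in 15.8% of all genes for nFoxA1Treg and in 14.1% for Treg. Its difference from EncT was 0.65 log2 in nFoxA1Treg (1.57-fold, SE 0.065, adjusted p = 6.04e-05) and 0.54 log2 in Treg (1.45-fold, SE 0.065, adjusted p = 0.00036).

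Ppp1r15a encodes GADD34, the inducible subunit of the phosphatase that removes the phosphate from eIF2, and was the largest rise in this class. It was measured at 7.25, 7.17 and 7.15 log2 in nFoxA1Treg and at 7.13, 6.90 and 7.01 log2 in Treg, against 6.27, 6.19 and 6.01 log2 in EncT, again without overlap. The difference was 1.03 log2 (2.05-fold, SE 0.089, adjusted p = 1.61e-05) in nFoxA1Treg and 0.86 log2 (1.81-fold, adjusted p = 0.000131) in Treg. Chac1, a glutathione-degrading enzyme induced by ATF4, had 5.52, 5.55 and 5.76 log2 in nFoxA1Treg and 5.44, 5.83 and 5.51 log2 in Treg, against 4.54, 4.86 and 5.04 log2 in EncT. All 6 regulatory T cell arrays lay above the EncT arrays, with differences of 0.80 log2 (adjusted p = 0.0027) and 0.78 log2 (adjusted p = 0.00405).

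Trib3, a pseudokinase that restrains ATF4 activity, varied widely among the EncT arrays. Its values were 5.41, 5.47 and 5.32 log2 in nFoxA1Treg and 5.0, 5.0 and 5.40 log2 in Treg, against 5.14, 4.33 and 4.11 log2 in EncT, where the first EncT array overlapped the Treg arrays. It was called in nFoxA1Treg (0.87 log2, adjusted p = 0.0171) and not in Treg (0.60 log2, adjusted p = 0.0874). Without EncT replicate 1 the Treg difference was 0.91 log2 with an adjusted p of 0.00622, and without EncT replicate 2 it was 0.89 log2 with 0.0361, both past the test. The nFoxA1Treg call was lost without EncT replicate 3 (0.66 log2, adjusted p = 0.0652) and without nFoxA1Treg replicate 1 (adjusted p = 0.0524) or 2 (adjusted p = 0.0598). Atf5, a factor related to ATF4, was called higher in nFoxA1Treg by 0.32 log2 with an adjusted p of 0.0445, and in Treg it differed by -0.04 log2. That call was lost under 6 of 11 alternative settings and on leaving out each array of the 2 groups but EncT replicate 3, with adjusted p of 0.065 to 0.146.

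Neither C/EBP gene was called higher, and Cebpg was called lower on its brightest probe set. Cebpg, the dimerization partner of ATF4, measured 7.68, 7.76 and 7.68 log2 in nFoxA1Treg and 7.81, 7.69 and 7.70 log2 in Treg, against 8.15, 7.96 and 8.16 log2 in EncT. All regulatory T cell arrays lay below the EncT arrays, by 0.38 log2 on average in nFoxA1Treg (difference -0.38, adjusted p = 0.00202) and 0.36 log2 in Treg (difference -0.36, adjusted p = 0.00405). Its other probe sets, 1451639_at and 1425261_at, differed by -0.16 and -0.40 log2 in nFoxA1Treg and were not called. With the mean of its probe sets Cebpg was called in neither comparison (adjusted p = 0.0893 in nFoxA1Treg and 0.311 in Treg). Cebpb differed by 0.03 log2 in nFoxA1Treg and -0.05 log2 in Treg, with overlapping arrays.

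Ddit3, which encodes the stress factor CHOP, was measured at 6.68, 6.65 and 7.03 log2 in nFoxA1Treg and at 6.91, 6.86 and 6.71 log2 in Treg, against 6.92, 6.74 and 6.82 log2 in EncT. The 3 groups overlapped, and the 95% interval of the difference from EncT ran from -0.26 to 0.18 log2 in nFoxA1Treg and from -0.22 to 0.22 log2 in Treg. Sesn2, a sestrin that restrains mTORC1, differed by -0.04 log2 in nFoxA1Treg and by -0.42 log2 in Treg, where the adjusted p was 0.109. Eif4ebp1, the translation repressor 4E-BP1, differed by -0.02 and -0.13 log2 in the same groups, and EncT spread from 8.39 to 9.23 log2. Without EncT replicate 2, its lowest EncT array, Eif4ebp1 was called in Treg with an adjusted p of 0.0282.

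**Figure D3:**
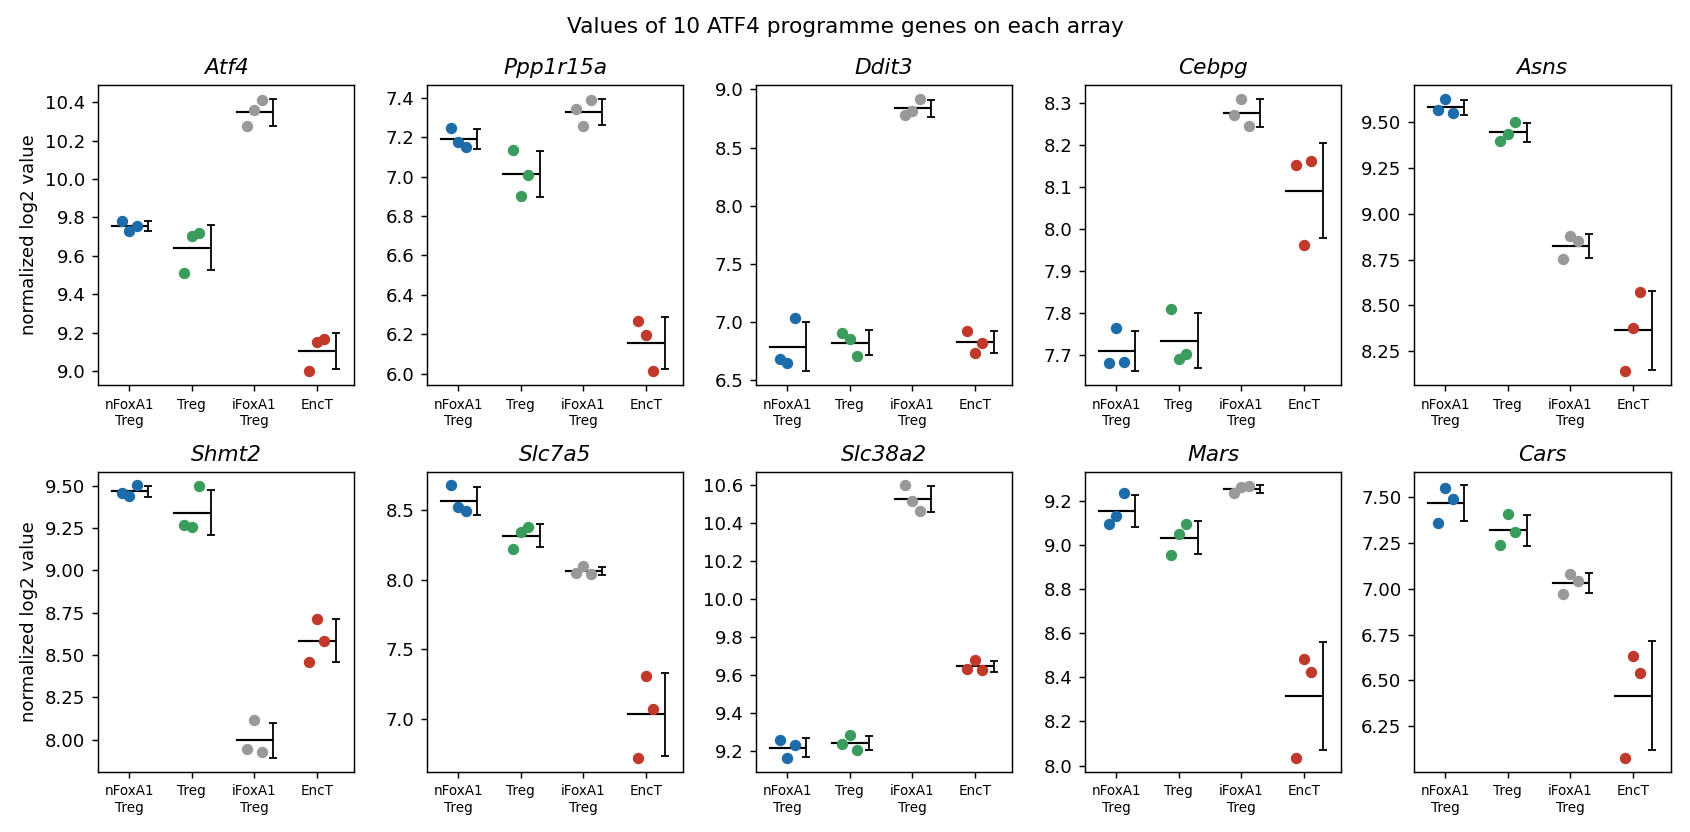
Points are normalized log2 values of 10 members on the 3 arrays of each group, with the mean as a line and the SD as a bar, and each panel has its own y axis. Asns, Slc7a5 and Cars are highest in nFoxA1Treg and Treg, Cebpg and Slc38a2 are lowest there, and Ddit3 is apart from the rest in the arrays labelled iFoxA1Treg alone.

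The enzymes that make amino acids and handle folate-bound carbon units were higher almost throughout. In nFoxA1Treg 9 of 10 were called higher and in Treg 8 of 10, with none lower. The share called higher over all genes was 8.46% and 6.23%. The median difference of the enzymes was 0.52 and 0.44 log2. Asns, asparagine synthetase and the classic ATF4 target, stood at 9.57, 9.63 and 9.55 log2 in nFoxA1Treg and at 9.40, 9.44 and 9.5 log2 in Treg, against 8.14, 8.38 and 8.57 log2 in EncT. The gap between the highest EncT array and the lowest regulatory T cell array was wider than the range within any of these groups. The difference was 1.22 log2 (2.33-fold, SE 0.086, adjusted p = 6.81e-06) in nFoxA1Treg and 1.08 log2 (2.12-fold, SE 0.086, adjusted p = 2.41e-05) in Treg.

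The serine pathway was higher at its first steps. Phgdh, which commits glycolytic 3-phosphoglycerate to serine, had 10.62, 10.62 and 10.57 log2 in nFoxA1Treg and 10.45, 10.55 and 10.60 log2 in Treg, against 9.96, 10.10 and 10.13 log2 in EncT. It differed by 0.55 log2 (adjusted p = 8.75e-05) and 0.47 log2 (adjusted p = 0.00036) with no overlap. Psat1, the transaminase of the next step, differed by 0.53 log2 (adjusted p = 0.0001) in nFoxA1Treg and 0.45 log2 (adjusted p = 0.000527) in Treg. Psph, the phosphatase of the last step, was called in nFoxA1Treg by a small margin (0.17 log2, adjusted p = 0.0477) and not in Treg (0.13 log2, adjusted p = 0.125). The Psph call was lost under 8 of 11 alternative settings and without EncT replicate 1 or 2 or nFoxA1Treg replicate 1 or 3, with adjusted p of 0.0693 to 0.163.

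Shmt2, the mitochondrial hydroxymethyltransferase that passes a carbon of serine to folate, was the largest change of the folate enzymes. It was measured at 9.46, 9.44 and 9.5 log2 in nFoxA1Treg and at 9.27, 9.26 and 9.5 log2 in Treg, against 8.46, 8.71 and 8.59 log2 in EncT. The groups did not overlap, and the difference was 0.88 log2 (1.84-fold, SE 0.080, adjusted p = 2.75e-05) in nFoxA1Treg and 0.76 log2 (1.69-fold, adjusted p = 0.000157) in Treg. Its cytosolic counterpart Shmt1 differed by 0.63 log2 (adjusted p = 0.00137) and 0.37 log2 (adjusted p = 0.028), but none of its 3 other probe sets was called in either comparison. Its Treg call was lost without EncT replicate 1 (adjusted p = 0.093), Treg replicate 2 (0.0716) or Treg replicate 3 (0.122). The folate enzymes Mthfd1 (0.52 and 0.43 log2) and mitochondrial Mthfd2 (0.34 and 0.27 log2) were called in nFoxA1Treg and Treg, and Mthfd1l (0.16 and 0.04 log2) in neither, although Mthfd1l was called in nFoxA1Treg without EncT replicate 1 (adjusted p = 0.0226). Aldh18a1, which starts proline synthesis from glutamate, was called at 0.43 log2 in nFoxA1Treg and 0.49 log2 in Treg.

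Among 7 amino acid transporters, the leucine and cationic amino acid importers were higher. The system A transporter Slc38a2 was lower on its brightest probe set but was not called with the mean of its probe sets. Counts were 5 higher and 1 lower in nFoxA1Treg and 3 higher and 1 lower in Treg. The 5 include Slc1a4, which passed the filter only with the iFoxA1Treg arrays included. Over all genes, 8.46% were called higher and 11.2% lower in nFoxA1Treg, and 6.23% and 10.3% in Treg. The 1 lower is 14.3% of the transporters, near those shares. Slc7a5, the LAT1 subunit that imports leucine and other large neutral amino acids, showed the largest rise of all members. It stood at 8.68, 8.53 and 8.49 log2 in nFoxA1Treg and at 8.22, 8.34 and 8.38 log2 in Treg, against 6.72, 7.31 and 7.07 log2 in EncT, so that every regulatory T cell array was above every EncT array. The difference was 1.53 log2 (2.90-fold, SE 0.12, adjusted p = 8.20e-06) in nFoxA1Treg and 1.28 log2 (2.44-fold, SE 0.12, adjusted p = 4.15e-05) in Treg.

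Slc3a2, the heavy chain CD98 that pairs with Slc7a5 at the membrane, measured 9.80, 9.76 and 9.84 log2 in nFoxA1Treg and 9.61, 9.65 and 9.71 log2 in Treg, against 8.85, 9.02 and 9.06 log2 in EncT. Both parts of this heterodimer were thus called higher, Slc3a2 by 0.82 log2 (adjusted p = 8.34e-06) and 0.68 log2 (adjusted p = 5.90e-05). Slc7a1, the CAT1 importer of arginine and lysine, differed by 0.67 log2 (adjusted p = 0.0012) in nFoxA1Treg and 0.50 log2 (adjusted p = 0.00771) in Treg. Slc1a5, the ASCT2 glutamine transporter, differed by 0.21 log2 (adjusted p = 0.032) and 0.16 log2 (adjusted p = 0.101), and with the mean of its probe sets the nFoxA1Treg difference was -0.07 log2. The nFoxA1Treg call was lost without EncT replicate 1 (adjusted p = 0.107), nFoxA1Treg replicate 1 (0.0777) or nFoxA1Treg replicate 2 (0.131).

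Slc38a2, the SNAT2 transporter of small neutral amino acids, was lower in both regulatory groups on its brightest probe set, 1426722_at. It stood at 9.26, 9.16 and 9.23 log2 in nFoxA1Treg and at 9.24, 9.28 and 9.20 log2 in Treg, against 9.63, 9.68 and 9.62 log2 in EncT. These arrays did not overlap, with a difference of -0.43 log2 (adjusted p = 0.000147) and -0.40 log2 (adjusted p = 0.000346). A dimmer probe set of the gene, 1429593_at, pointed the other way by 0.33 and 0.34 log2 without being called, and with the mean of the probe sets the gene was called in neither comparison.

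Slc1a4, the ASCT1 transporter of serine, alanine and cysteine, and Slc7a11, the cystine importer xCT, lay near the floor of the T cell arrays. Slc1a4 was at 4.43, 4.39 and 4.55 log2 in nFoxA1Treg and at 3.96, 3.99 and 4.10 log2 in Treg, against 2.57, 3.73 and 3.39 log2 in EncT. It was called in nFoxA1Treg (1.22 log2, adjusted p = 0.00608) and not in Treg (0.78 log2, adjusted p = 0.0558), where it passed the test without EncT replicate 2 (adjusted p = 0.0124). Slc7a11 ranged from 3.45 to 3.86 log2 in nFoxA1Treg, from 3.57 to 4.14 log2 in Treg and from 3.24 to 3.73 log2 in EncT, and the groups overlapped.

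The 12 cytosolic tRNA synthetases among the members, which charge tRNAs with their amino acids, were nearly all called higher. In nFoxA1Treg 11 of 12 were called higher and in Treg 10 of 12, with none lower, and all 12 had every regulatory T cell array above every EncT array in both comparisons. Over all genes such a separation upward occurred in 15.8% of genes for nFoxA1Treg against EncT (17.9% downward) and in 14.1% for Treg against EncT (19.2% downward). The median difference was 0.62 log2 in nFoxA1Treg and 0.53 log2 in Treg. Called higher over all genes were 8.46% in nFoxA1Treg and 6.23% in Treg. Cars, for cysteine, had the largest difference, at 7.36, 7.55 and 7.49 log2 in nFoxA1Treg and 7.24, 7.41 and 7.31 log2 in Treg, against 6.08, 6.63 and 6.54 log2 in EncT. That is 1.05 log2 (2.07-fold, SE 0.12, adjusted p = 0.000188) and 0.90 log2 (1.87-fold, adjusted p = 0.000687).

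Nars, for asparagine, had the smallest adjusted p of the class. It was measured at 10.02, 10.06 and 9.99 log2 in nFoxA1Treg and at 9.92, 9.92 and 10.02 log2 in Treg, against 9.30, 9.36 and 9.44 log2 in EncT. The spread within a group was small beside the difference of 0.66 log2 (SE 0.049, adjusted p = 7.57e-06) in nFoxA1Treg and 0.59 log2 (adjusted p = 2.41e-05) in Treg. Iars, for isoleucine, was close in size at 0.60 log2 (adjusted p = 1.79e-05) and 0.48 log2 (adjusted p = 0.000183).

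Mars, for methionine, stood at 9.10, 9.13 and 9.24 log2 in nFoxA1Treg and at 8.95, 9.05 and 9.10 log2 in Treg, against 8.03, 8.48 and 8.43 log2 in EncT. The first EncT array was the lowest of the 9, and the differences were 0.84 log2 (adjusted p = 0.000152) and 0.72 log2 (adjusted p = 0.0006). Yars, for tyrosine, differed by 0.85 and 0.72 log2, Tars, for threonine, by 0.69 and 0.56 log2, and Aars, for alanine, by 0.65 and 0.58 log2, all called. Lars, for leucine (0.59 and 0.49 log2), and Gars, for glycine (0.54 and 0.44 log2), were also called in both. The smallest differences were those of Wars, for tryptophan (0.39 and 0.32 log2), Eprs, for glutamate and proline (0.25 and 0.18 log2), and Sars, for serine (0.18 log2 in each). Wars was called in both, Eprs in nFoxA1Treg alone and Sars in neither (adjusted p = 0.0506 in nFoxA1Treg and 0.0647 in Treg). The Wars call in Treg, at an adjusted p of 0.0491, was lost under 6 of 11 alternative settings and on leaving out each array of the 2 groups but EncT replicate 2 (adjusted p of 0.0605 to 0.166). Its nFoxA1Treg call was lost without EncT replicate 1 (0.0612) or nFoxA1Treg replicate 1 (0.073) or 2 (0.0571). Eprs was called in Treg without EncT replicate 1 (0.0125), and Sars in nFoxA1Treg (0.0298) and Treg (0.0374) without EncT replicate 2.

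Between the regulatory groups no single member passed the test, which does not show that they are alike. In nFoxA1Treg against Treg limma called 0 of 39 members, 6 had an unadjusted p under 0.05, and 1 of 12609 genes was called in all (0.00793%), with 468 at an unadjusted p under 0.05 (3.71%). The 6 were Atf5 (0.36 log2), Sesn2 (0.37 log2), Shmt1 (0.26 log2), Slc7a5 (0.25 log2), Slc3a2 (0.14 log2) and Iars (0.12 log2), each higher in nFoxA1Treg. For 33 of the 39 members the 95% interval of the difference lay within 0.5 log2 of 0, a 1.41-fold difference, and the widest ends were -0.60 log2 for Slc7a11 and 1.0 log2 for Slc1a4.

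Small differences in 1 direction were nevertheless frequent in this comparison. The members' median was 0.11 log2, against 0.0061 log2 over all genes. Above 0 were 34 of 39 members and 6619 of all 12609 genes. The members were read on the same arrays and are not independent of each other. For 14 members every nFoxA1Treg array was above every Treg array and for none below, while 6.57% of all genes were separated upward and 4.67% downward. The 14 include Atf4, Asns, Slc7a5 and Slc3a2. The order of the group means was nFoxA1Treg above Treg above EncT for 30 of 39 members and for 23.7% of all genes. It was Treg above nFoxA1Treg above EncT for 2 members and for 17.1% of all genes. Of the 30 members called higher in nFoxA1Treg, 24 were also called higher in Treg against EncT, and none was called between nFoxA1Treg and Treg. Treg replicate 1 was the lowest Treg array for 26 of 39 members, against 38.8% of all genes, and nFoxA1Treg replicate 3 the lowest of its group for 23 members, against 33.5%.

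Promoters were searched for the core of the C/EBP-ATF response element, the letters TGATGNAA with N for any base, on both strands, because this is the site through which ATF4 is known to act on several members. RefSeq windows of 300 bases (GRCm38.p6), 250 before and 50 after the start of the gene, were given for 32 members. Of these, 10 (31.2%) held a match, against 4.51% of 27025 genes with windows. Many members are in the set as known ATF4 targets, so a higher share follows from that choice and is not a result of these arrays. Before the start alone, 6 members (18.8%) held a match, against 3.91% of genes. No window was at hand for Slc7a5, Slc1a5, Cars, Lars, Nars, Wars and Eif4ebp1. Of the 26 called members with a window, 9 held a match, and the one other member with a match was Slc7a11, which holds it 2 times and was not called in the T cell comparisons.

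The sequences shown are those of the largest rises in nFoxA1Treg against EncT with a match, and of Shmt2, the largest rise with none in a window that overlaps no other annotated gene. Slc1a4 is among them by a difference from EncT values under the filter level. They run 5′ to 3′ on the strand of the gene, and capitals mark the match, which reads TTNCATCA where it lies on the opposite strand. For Asns and Chac1 the 250 bases before the start are shown, and the matches begin 23 and 193 bases before it. For Slc1a4, Trib3 and Yars, whose match spans or follows the start, it is shown with 6 bases on either side.
Asns, chr6:7693210-7693459, minus strand: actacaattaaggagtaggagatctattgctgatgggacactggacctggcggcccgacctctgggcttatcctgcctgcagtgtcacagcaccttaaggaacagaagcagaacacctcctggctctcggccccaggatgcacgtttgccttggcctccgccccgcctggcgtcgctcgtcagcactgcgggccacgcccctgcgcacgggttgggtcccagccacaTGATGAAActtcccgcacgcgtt
Chac1, chr2:119350992-119351241, plus strand: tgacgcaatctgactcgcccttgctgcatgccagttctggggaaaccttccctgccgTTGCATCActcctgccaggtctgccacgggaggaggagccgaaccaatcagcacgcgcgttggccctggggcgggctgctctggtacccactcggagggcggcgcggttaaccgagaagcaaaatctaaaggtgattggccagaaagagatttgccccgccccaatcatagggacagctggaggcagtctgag
Shmt2, chr10:127522445-127522694, minus strand: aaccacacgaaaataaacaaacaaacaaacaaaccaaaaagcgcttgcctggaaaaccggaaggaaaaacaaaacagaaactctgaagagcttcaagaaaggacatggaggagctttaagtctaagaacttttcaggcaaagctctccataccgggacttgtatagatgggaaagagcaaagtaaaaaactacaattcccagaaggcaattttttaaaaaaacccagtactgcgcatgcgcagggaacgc
Slc1a4, chr11:20332704-20332723, minus strand: cctgcgTTGCATCAtctcca
Trib3, chr2:152344033-152344052, minus strand: tcaggtTTACATCAgccggg
Yars, chr4:129189900-129189919, plus strand: ctcagcTGATGCAAcccgac

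The Asns, Chac1 and Shmt2 sequences belong to genes that were 1.22, 0.80 and 0.88 log2 higher in nFoxA1Treg than in EncT. Of the 11 synthetases called in nFoxA1Treg, 7 had a window, and 5 of these, Aars, Gars, Tars, Iars and Yars, held a match. Among the enzymes of serine and folate metabolism none of the windows did. A match is a run of letters in this window and says nothing on binding.

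Genes around the programme were counted in the same way, from lists of related genes. Over all genes, 8.46% were called higher and 11.2% lower in nFoxA1Treg, and 6.23% higher and 10.3% lower in Treg. Of 10 other cytosolic synthetases and scaffold proteins of the synthetase complex, 3 were called higher and none lower in both comparisons. These were Rars (0.37 log2 in nFoxA1Treg and 0.30 log2 in Treg), Farsb (0.29 and 0.23 log2) and Hars (0.24 and 0.20 log2), which charge arginine, phenylalanine and histidine. Mitochondrial synthetases were called at near the shares over all genes. Of 15, 2 (13.3%) were called higher in nFoxA1Treg, Ears2 (0.60 log2) and Rars2 (0.37 log2), and none lower. In Treg 1 was called higher, Rars2 (0.22 log2), and 1 lower, Hars2 (-0.27 log2), which is 6.67% each way.

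Upstream of ATF4, 3 of 16 genes for eIF2, its exchange factor, its kinases and regulators were called higher in each regulatory group and 1 lower. That is 18.8% and 6.25%, against 8.46% and 11.2% of all genes in nFoxA1Treg and 6.23% and 10.3% in Treg. Eif2s2, the beta subunit of eIF2, differed by 0.35 log2 in nFoxA1Treg and 0.32 log2 in Treg, and Eif2b3, a subunit of the exchange factor, by 0.42 and 0.37 log2. Ppp1r15b, the constitutive partner of the eIF2 phosphatase, differed by 0.25 and 0.24 log2. The adaptor gene Nck1 was lower, at -0.59 and -0.40 log2. None of the eIF2 kinase genes was among those called. Of 20 other ATF4 targets and amino acid genes, 6 were called higher and 1 lower in nFoxA1Treg, and 3 higher and 1 lower in Treg. These are 30% and 5% in nFoxA1Treg and 15% and 5% in Treg. Bcat1, a branched-chain amino acid transaminase, differed by 1.0 log2 in nFoxA1Treg and 0.80 log2 in Treg, and Gpt2, the mitochondrial alanine transaminase, by 0.97 and 0.92 log2. Ddit4, an inhibitor of mTORC1 also known as REDD1, was lower by 1.09 log2 in nFoxA1Treg (difference -1.09, adjusted p = 0.000259) and by 0.84 log2 in Treg (difference -0.84, adjusted p = 0.0016).

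The chaperone branch of the unfolded protein response was mixed, with 6 higher and 2 lower of 19 in nFoxA1Treg and 4 higher and 4 lower in Treg. That is 31.6% and 10.5% in nFoxA1Treg, against 8.46% and 11.2% of all genes. In Treg it is 21.1% each way, against 6.23% and 10.3%. Hspa5, the chaperone BiP, differed by 0.45 log2 in nFoxA1Treg and 0.40 log2 in Treg and the disulfide isomerase gene Pdia6 by 0.40 and 0.32 log2. Ern1, which encodes the stress sensor IRE1 alpha, was lower by 1.30 log2 in nFoxA1Treg (difference -1.30, adjusted p = 6.81e-06) and 1.24 log2 in Treg (difference -1.24, adjusted p = 1.31e-05). Among 23 genes of mTORC1 and Myc, 1 was called higher and 3 lower in each comparison, near the share over all genes. The one higher was Ncl, nucleolin, at 0.21 and 0.18 log2, and the lower ones include Sesn1, a sestrin (-0.70 and -0.78 log2), and Myc itself (-0.39 and -0.30 log2).

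**Figure D4:**
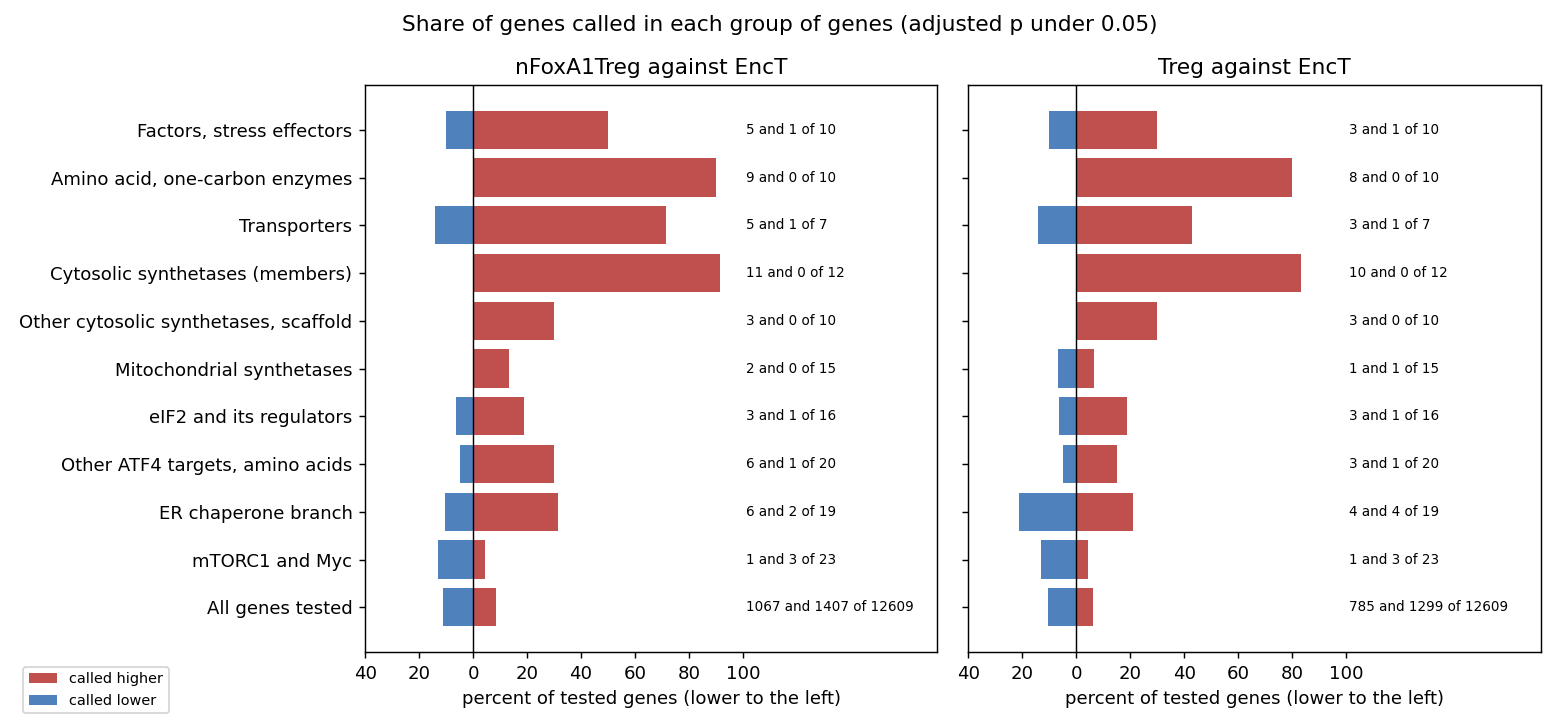
Bars give the percent of tested genes called higher (right of 0) and lower (left of 0) than in EncT for each role of the programme, for related lists and for all genes, with the counts higher and lower beside each bar. Enzymes and cytosolic synthetases reach 90% and 91.7% called higher in nFoxA1Treg, against 8.46% of all genes.

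On the arrays labelled iFoxA1Treg the calls differed by role. Against EncT, 22 members were called higher and 9 lower, but 72.2% of all genes were called there, 33.9% higher and 38.3% lower. The 22 include Slc7a11 and Slc1a4, which passed the filter only through these arrays. Of the members, 56.4% were called higher and 23.1% lower. All 9 macrophage and all 6 B cell markers were called higher on these arrays and all 8 T cell markers lower, and their part in the values that follow was not tested. With values as deposited, the median of all genes in this comparison was -0.18 log2 in place of -0.02 log2, and 12 members were called lower in place of 9.

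The factors were called higher almost throughout, 9 of 10, with none lower, against 33.9% and 38.3% of all genes. Ddit3 stood at 8.78, 8.81 and 8.92 log2 on the arrays labelled iFoxA1Treg, 2.01 log2 above EncT (adjusted p = 8.50e-10), and Cebpb at 10.97, 10.67 and 10.77 log2, 3.12 log2 above EncT (adjusted p = 1.09e-10). Neither gene differed from EncT by a called amount in nFoxA1Treg or Treg. Chac1 was 2.34 log2, Atf5 1.75 log2, Trib3 1.58 log2, Atf4 1.24 log2, Ppp1r15a 1.17 log2 and Sesn2 0.93 log2 above EncT. Cebpg was 0.19 log2 above EncT, where the direction differed between its probe sets. That call was lost under 4 of 10 alternative settings (adjusted p up to 0.933), without EncT replicate 2 (0.101) and without iFoxA1Treg replicate 2 (0.0744).

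Against EncT, 20% of the enzymes were called higher and 50% lower, not far for 10 genes from 33.9% and 38.3% of all genes. Of 10 enzymes, 2 were called higher than in EncT, Asns (0.46 log2) and Phgdh (0.18 log2), and 5 were called lower, led by Psat1 (-0.66 log2), Mthfd1l (-0.65 log2) and Shmt2 (-0.59 log2). The Phgdh call was lost with values as deposited (adjusted p = 0.145) and without iFoxA1Treg replicate 2 (0.0598). Against Treg all 10 enzymes were called lower, as they were against nFoxA1Treg, with 38.4% and 39.2% of all genes lower. Shmt1, however, had another probe set, 1425177_at, called higher in both (0.54 log2 against Treg and 0.38 log2 against nFoxA1Treg). Shmt2 stood at 7.94, 8.12 and 7.93 log2, 1.47 log2 below nFoxA1Treg and 1.35 log2 below Treg (differences -1.47 and -1.35, adjusted p = 1.57e-09 and 3.90e-09). Asns stood at 8.75, 8.88 and 8.85 log2, between the T cell groups, above every EncT array and below every array of nFoxA1Treg and Treg.

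Of the 7 transporters, 5 were called higher than in EncT and 2 lower, with a median difference of 0.89 log2. The 5 include Slc7a11 and Slc1a4, which passed the filter only through these arrays, so their calls are no separate result. Over all genes, 33.9% were called higher and 38.3% lower. Slc7a5 was 1.03 log2, Slc3a2 0.89 log2 and Slc38a2 0.88 log2 above EncT, and Slc1a4 was called higher than EncT values under the filter level. With the mean of its probe sets Slc38a2 differed by 0.05 log2 and was not called (adjusted p = 0.47). Slc7a11 was at 7.65, 7.70 and 7.51 log2 on the arrays labelled iFoxA1Treg, against 3.24 to 3.73 log2 in EncT, under the filter level. With 16 added to each value before the logarithm the difference was 2.98 log2. Slc1a5 was lower, at 8.19, 8.17 and 8.33 log2, a difference from EncT of -1.16 log2, and Slc7a1 differed by -0.34 log2, a call lost without EncT replicate 3 (adjusted p = 0.0501). Of the 12 synthetases 6 were called higher (50%) and 2 lower (16.7%) than in EncT. Mars had the largest rise (0.94 log2), and Gars (-0.77 log2) and Sars (-0.41 log2) were the falls. Counts over all members were 13 higher and 19 lower against Treg, with 73.6% of all genes called (35.2% higher and 38.4% lower). Against nFoxA1Treg they were 11 higher and 20 lower, with 74.4% called (35.2% higher and 39.2% lower). Slc7a11 is among the members called higher in both comparisons. The 19 include Cars, whose call was lost without any 1 of the 6 arrays compared (adjusted p of 0.0543 to 0.14), and Nars, whose call was lost without Treg replicate 3 or any 1 of the iFoxA1Treg arrays (0.0543 to 0.16). Eif2ak2, the interferon-induced eIF2 kinase PKR, stood 3.84 log2 above EncT on these arrays.

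Several probe sets past the filter were at hand for 24 members and give a check within each gene. Probe sets under the filter were not checked, among them all the other probe sets of Cars, Slc1a4 and Slc7a11. In nFoxA1Treg against EncT, 19 of these genes were called, 13 had every other probe set called the same way, and none had a probe set called the opposite way. The 6 with a probe set not called were Cebpg, Shmt1, Slc1a5, Slc38a2, Eprs and Wars. In Treg against EncT the counts were 16 called, 12 the same way and none opposite. On the arrays labelled iFoxA1Treg against EncT, 19 were called and Cebpg and Slc38a2 had a probe set called the opposite way. Against Treg these were Cebpg, Shmt1, Slc38a2 and Nars, and against nFoxA1Treg Shmt1 and Slc38a2.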

How the data were processed

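Values were taken from the table of processed values of 12 Affymetrix Mouse430_2 arrays. They are log2 probe set values as deposited by the authors, and the submitters' processing notes name PLIER. No source used here states its version or how arrays were scaled to each other, and the log2 base was inferred from the range of the values. Of 45037 probe sets, 34945 have 1 gene in the array annotation, 932 several and 9160 none.

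The array medians ran from 4.64 to 4.84 log2 and spanned 0.202, more than the 0.2 tolerated, and quantile normalization was therefore applied. A filter kept the 60% of probe sets with the highest mean (at least 4.05 log2), with the brightest single-gene probe set per gene. limma 3.58.1 (R 4.3.3) gave the tests (lmFit over all 12 arrays with 1 mean per group, 8 residual degrees of freedom, eBayes with an intensity trend, Benjamini-Hochberg). The script was tested on simulated data. Group errors are SD over 3 arrays, SE is that of a log2 change and intervals are 95%. Alternatives covered the scaling, filter, offset, probe set, arrays in the fit, spread and each array left out.

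The members and gene lists were chosen with earlier results of these data known. All 40 members are named; fuller statistics are given for up to 5 per role and comparison with the smallest adjusted p, and up to 4 called genes per related list.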

Additional observations from a re-analysis of the deposited data

How the results depend on the processing

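In nFoxA1Treg against EncT, 24 of the 32 called members were called under every alternative and every left-out array in which they were tested. In Treg against EncT these were 22 of 26. Slc1a4 is among the 24 but fell below the filter in some of these runs. It was tested in 7 of 11 alternatives and in 3 of 6 runs with an array left out. On the 9 arrays without iFoxA1Treg, 28 members were called higher and 2 lower in nFoxA1Treg and 24 and 2 in Treg, of 37 tested. With the mean of a gene's probe sets no member was called lower (0 in place of 2) in either comparison. Among members called with the brightest probe set or with that mean, 4 changed sign. These were Slc1a5 in nFoxA1Treg against EncT (-0.0749 log2, adjusted p 0.635) and Slc38a2 in Treg against EncT (0.0446, 0.703). On the arrays labelled iFoxA1Treg they were Wars against EncT (-0.256, 0.0409) and Nars against Treg (0.0315, 0.635). Sign changes without a call were not counted. The cause was not tested.

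Counts over all genes moved more. In nFoxA1Treg against EncT 1221 genes were called with only the arrays of these groups, where fewer arrays estimate the spread, and 4721 with array weights, against 2474. In Treg against EncT these were 1134 and 4196, against 2084. In nFoxA1Treg against Treg 1 gene was called, 4 with no filter, 0 in the upper 40% of probe sets, 3 with an offset of 16, 2 with the mean of probe sets, 10 with array weights and 2 with the replicate block, and no member under any of these.

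Leaving out single arrays gave 24 to 29 members higher and 2 lower in nFoxA1Treg against EncT, with 1517 to 3010 genes in all (1517 without nFoxA1Treg replicate 2 and 1524 without nFoxA1Treg replicate 1), and 22 to 27 higher and 2 to 3 lower in Treg against EncT, with 1013 to 2716 genes (1013 without Treg replicate 2 and 1068 without Treg replicate 3). In nFoxA1Treg against Treg it gave 0 to 12 genes and no member. The shares called higher among all called genes on the arrays labelled iFoxA1Treg went from 47.0%, 47.8% and 47.3% against EncT, Treg and nFoxA1Treg to 36.1%, 38.8% and 38.1% with values as deposited.

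The labels give replicate numbers, but arrays of the same number did not deviate together: over 18 pairs r ran from -0.163 to 0.166, with 2 above 0.1. With the replicate block, 28 members were called higher and 2 lower in nFoxA1Treg against EncT and 25 and 2 in Treg against EncT, with 2343 and 1880 genes in all. The share of members with a promoter match was 31.2% over the whole window and 18.8% before the start.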
